A study of Mus musculus with 144 samples.

Results

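Tandem polyadenylation site pairs are here neighbouring listed sites on the same chromosome and strand whose midpoints lie 200 to 2000 bp apart. They were taken from the authors' filtered list of 29199 polyadenylation sites in mouse liver, and 5828 of the 29157 neighbouring pairs of that list fell in this distance range, with another 9002 pairs closer together and 14327 farther apart. Beyond the authors' own filter of the site list, no measured value entered this choice. Site sequences were not used, so whether each listed site is a true cleavage site was not tested. Coordinates are those of that list, counted from 1, and mm10 is a build the submitters' processing notes name. The value followed for each pair is the downstream share, the percentage of the pair's summed site counts that lay at the site nearer the 3′ end of the transcript.

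Most mammalian genes can end their mRNA at more than 1 position. Cleavage factors read a poly(A) signal in the nascent RNA, cut just after it, and poly(A) polymerase adds the tail. Where the sites of a tandem pair lie in the same terminal exon, use of the downstream site gives a longer 3′ untranslated region with the same coding sequence, and that extra stretch can hold binding sites for microRNAs and RNA-binding proteins, which act on mRNA stability, export and translation. Where the upstream site lies in an intron or an earlier exon, its use shortens the protein as well. In liver, a tissue with strong daily rhythms, BMAL1 (gene symbol Arntl) is a core activator of the circadian clock.

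The libraries came from livers of male C57BL/6J mice under a cycle of 12 h light and 12 h dark, fed and watered freely, and were made with a kit that sequences the 3′ end of polyadenylated RNA (QuantSeq). There were 4 series of 36 libraries: total RNA of wild-type mice, nuclear RNA of wild-type mice from nuclei spun through a sucrose cushion, polysomal RNA of wild-type mice from sucrose gradient fractions with cycloheximide in the buffer, and total RNA of mice labelled Bmal1-/-. Every series sampled the day 6 times with 6 libraries a time, named by hours since the lights came on (zeitgeber time, ZT): ZT2, ZT6, ZT10, ZT14, ZT18 and ZT22. The labels do not say whether libraries with the same number came from the same animal, so the p-values measure the spread between these libraries. The animals' ages are not given in the sources used here.

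Wild-type total RNA libraries held 4079501 to 7771094 site counts, nuclear libraries 1404964 to 5720115, polysomal libraries 1742356 to 10477400 and Bmal1-/- libraries 3175685 to 12217394, and a median of 49.4% of them lay at sites of tandem pairs in wild-type total RNA. Hepatocyte transcripts such as albumin were present in all libraries, and 3 airway transcripts summed to at most 929 CPM (counts scaled to the library's total) in polysomal RNA and to 0.301 CPM at most in each of the other series, and their part in the polysomal results was not tested. Arntl was counted at 5.17 to 18.6 CPM in libraries labelled Bmal1-/- and at 0.251 to 19.3 CPM in wild-type total RNA. The sources used here do not say which exons were deleted, so these 3′ counts do not check the genotype. Wild-type total RNA replicate 4 at ZT2 stood apart, with a correlation of 0.897 with its series over the pairs' shares against at least 0.956 for the other 35 libraries. Xist, a transcript of the inactive X chromosome, was above 100 CPM in 4 libraries at ZT22, 1 of each series, and Y-linked genes summed to under 1 CPM in 3 of them, against the male label.

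The tandem pairs occupied 10367 sites, of which 1289 belonged to 2 pairs. The median distance was 658 bp, and 2168 pairs lay 200 to 500 bp apart, 1836 lay 500 to 1000 bp apart and 1824 lay 1000 to 2000 bp apart. Both sites lay in the same gene in 5514 pairs (94.6%), within its RefSeq span or up to 1000 bp past its end, and those pairs belonged to 3609 genes. A single pair was found in 2357 of these genes and 3 or more in 403. The genes with the most pairs were Apob, which encodes the main structural protein of very low density lipoprotein and held 12 pairs, and Sfpq, a splicing factor gene with 10 pairs. In 2060 same-gene pairs (37.4%) the sites were the last 2 of the gene. The downstream site lay within 25 bp of the annotated gene end in 1179 same-gene pairs (21.4%), and the upstream site did so in 77 (1.40%). Exon positions were not used here, so introns, coding exons and untranslated regions are not told apart. At the lower edge of the range, 118 pairs lay 200 to 210 bp apart, and 143 pairs excluded by the distance lay 190 to 200 bp apart.

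In wild-type total RNA, 4045 of the 5828 pairs had enough counts for a test, which required an average pair total of 20 or more counts and 5% or more of them at each site. Their median downstream share was 55.0%, with quartiles of 26.4% and 78.7%, and the downstream site was the more used of the pair in 2202 of them (54.4%). The share was higher at pairs that end a gene. Its median was 62.7% at the 1376 pairs formed by the last 2 sites of a gene, against 51.8% at the 2466 earlier same-gene pairs, and 71.6% at the 827 pairs whose downstream site lay at the annotated gene end. Among distance classes the median was 58.8% at 200 to 500 bp, 52.5% at 500 to 1000 bp and 52.7% at 1000 to 2000 bp. These are levels, given without a test.

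A set of 1364 pairs held at least 20 counts in each library of the 4 series, which allowed 1 mean share per library. In wild-type total RNA it ran from 56.9% to 60.9%, with a mean of 57.8% ± 0.641 (SD, n = 36). The highest value was that of replicate 4 at ZT2, and the other 35 libraries lay at or below 58.4%. Nuclear RNA had a mean of 56.2% ± 0.636 (SD, n = 36) and a range from 54.8% to 57.6%, so that most of its libraries lay below most of those of total RNA while the ranges overlapped. Polysomal RNA had 57.6% ± 0.844 (SD, n = 36) and Bmal1-/- total RNA 57.3% ± 0.610 (SD, n = 36). The means of the series thus lay close together, while single pairs differed by much more, in either direction. Within each series, replicates 4 to 6 had a higher mean than replicates 1 to 3. The means were 58.0% and 57.5% in wild-type total, 56.4% and 56.0% in nuclear RNA. They were 57.9% and 57.3% in polysomal and 57.6% and 56.9% in Bmal1-/- RNA. The cause of this shift was not tested.

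**Figure D1:**
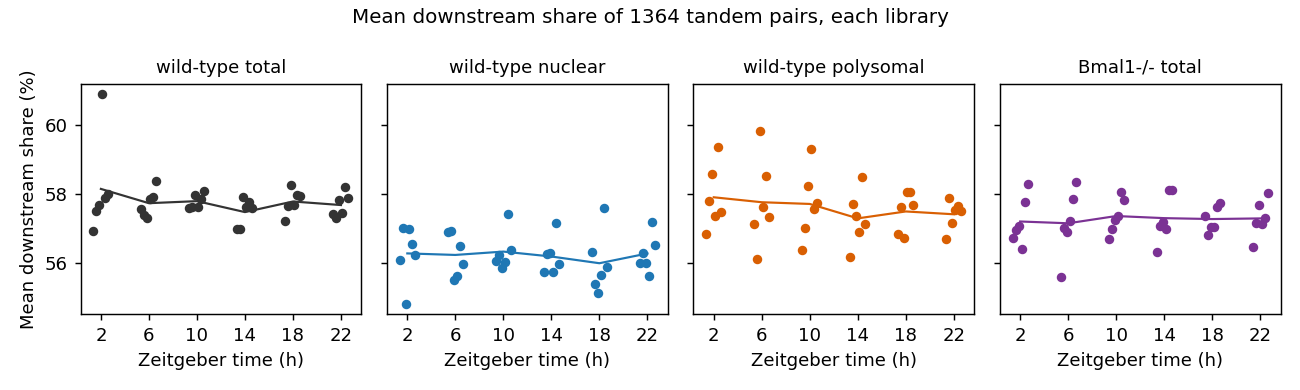
Mean downstream share (%) over the 1364 tandem pairs with at least 20 counts in every library, against zeitgeber time (h), 1 point per library and 1 panel per series, with a line through the means of 6 libraries. Wild-type total RNA replicate 4 at ZT2 stands at 60.9%, and nuclear libraries lie between 54.8% and 57.6%.

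Downstream shares of nuclear and total wild-type RNA differed at most tandem pairs, about as often as at all neighbouring pairs, in either direction. Whether cleavage, export or stability made the difference was not tested. Of 2687 pairs tested, 2102 passed the threshold (edgeR quasi-likelihood F test, Benjamini-Hochberg adjusted p under 0.05 over all neighbouring pairs), which is 78.2% against 77.2% of all 12555 neighbouring pairs tested. The downstream share rose in the nucleus at 911 of them and fell at 1191. Thus 43.3% of the called tandem pairs rose, against 53.7% of all called neighbouring pairs. Over all neighbouring pairs the calls split into 41.4% of pairs tested with a rise and 35.7% with a fall. The median change of the share over the tandem pairs tested was -1.76 percentage points, and the median size in either direction was 9.26 points. At least 10 points separated the series at 1248 called pairs, with 473 rises and 775 falls, and 48.9% of all neighbouring pairs tested were called with such a size (25.2% with a rise, 23.6% with a fall). The most used site of the pair changed from upstream in total RNA to downstream in the nucleus at 135 called pairs, and the other way at 234. Such changes were counted at tandem pairs alone, so whether their direction is particular to these pairs is not shown. At 93 of the 2687 pairs (3.46%) the 36 nuclear libraries did not overlap the 36 total RNA libraries, against 3.05% of all neighbouring pairs tested.

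The nuclear and polysomal differences varied with the distance between the sites. Among pairs under 200 bp apart, 2170 of 2948 tested were called in the nucleus and 1880 of those rose, and the median change was 6.92 points. At tandem pairs 200 to 300 bp apart the median was 0.353 points, and in each wider class up to 2000 bp it was negative, between -1.78 and -3.07 points. Polysomal RNA had the same turn, with a median of 6.21 points under 200 bp and medians between -1.34 and 0.218 points in the classes from 200 to 2000 bp. The same total RNA libraries served both comparisons, and that of Bmal1-/- RNA. Bmal1-/- RNA was called at 4.33% of the pairs under 200 bp and at 12.8, 11.4 and 10.5% of the tandem pairs 200 to 500, 500 to 1000 and 1000 to 2000 bp apart. Neighbouring pairs over 2000 bp apart, which are no tandem pairs here, had medians of -1.52 points in the nucleus and -2.88 points in polysomes, and 22.4% of them were called in Bmal1-/-. By strand, 79.1% of plus-strand and 77.3% of minus-strand tandem pairs tested were called in the nucleus. No test was made of the difference between distance classes.

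**Figure D2:**
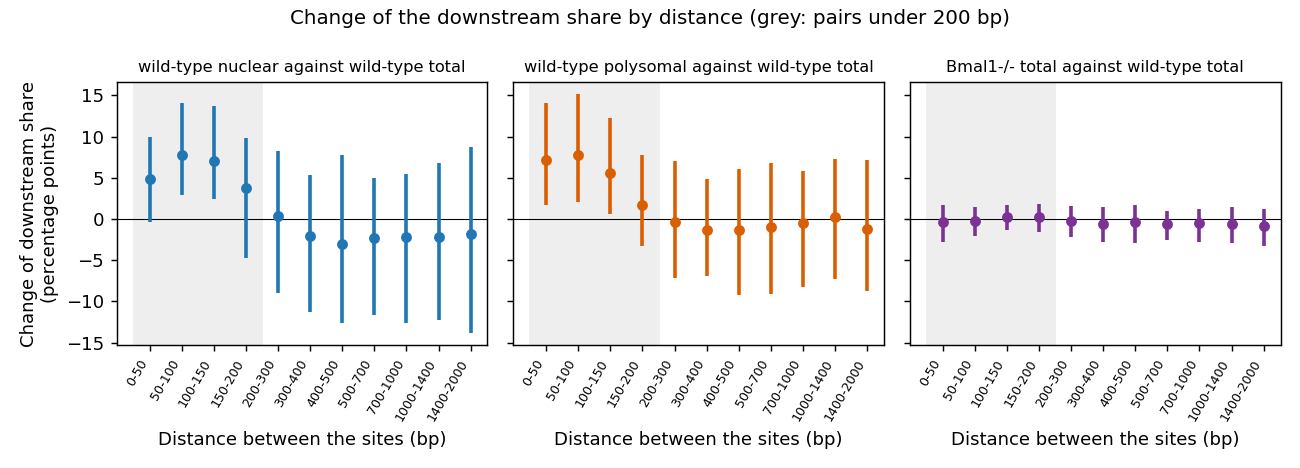
Change of the downstream share (percentage points) against wild-type total RNA, by distance between the sites (bp), for nuclear, polysomal and Bmal1-/- RNA. Points are medians over the pairs tested, bars run from the lower to the upper quartile, and the grey area marks pairs under 200 bp, where the nuclear and polysomal medians are above 0, while from 300 to 1000 bp both are below 0.

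In nuclear libraries, a smaller part of all site counts lay in the filtered list than in total RNA (66.8% to 90.7% against 88.9% to 91.2%). Without the nuclear libraries under 75%, 2056 tandem pairs were called, with 889 rises. Of the 5828 tandem pairs, 2448 were left out of the nuclear comparison for under 20 counts, 306 for a downstream share under 5% and 387 for one over 95%, and 3324 and 3957 pairs could be tested in polysomal and Bmal1-/- RNA. The site minimum was set on the mean of both series, so some pairs passed it through 1 series alone. Among tandem pairs with at least 5% at each site in both series, 1754 of 2328 (75.3%) were called in the nucleus, 1914 of 3004 (63.7%) in polysomes and 437 of 3891 (11.2%) in Bmal1-/-, against 73.97, 65.4 and 14.04% of all neighbouring pairs held to the same condition. In bulk tissue, fewer cells of a type and less RNA per cell cannot be told apart.

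Among the 6 pairs named with a rise in the nucleus was Hspd1, which encodes the mitochondrial chaperonin HSP60 (chr1:55080102-55080347 upstream and chr1:55079058-55079230 downstream, minus strand, 1080.5 bp apart). Its downstream share lay at 24.5% to 34.3% (median 30.7%) in total RNA and at 60.9% to 96.2% (median 80.8%) in the nucleus. All 36 nuclear libraries were above all total RNA libraries (log2 odds change 3.40, SE 0.15, adjusted p 2.24e-32). The upstream site held a mean of 147 CPM of site counts in total RNA and 8.71 CPM in the nucleus, while the downstream site held 63.7 and 36.96 CPM. Both sites of Hspd1 were thus lower in the nucleus, and the upstream one by more.

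Ptp4a2, a gene of the PRL family of tyrosine phosphatases, had a pair (chr4:129847821-129848020 upstream and chr4:129848206-129848378 downstream, plus strand, 371.5 bp apart) whose share ran over 26.99% to 38.5% (median 31.3%) in total RNA and 58.4% to 94.7% (median 81.2%) in the nucleus. The groups did not overlap (log2 odds change 3.16, SE 0.13, adjusted p 3.88e-34). The same held for Ddx5, a DEAD-box RNA helicase gene (chr11:106781544-106781740 upstream and chr11:106780348-106780538 downstream, minus strand, 1199 bp apart), with 24.5% to 43.1% (median 33.6%) against 49.6% to 86.8% (median 76.96%) (log2 odds change 2.52, SE 0.13, adjusted p 1.57e-28). In Ddx5 the upstream site went from 87.3 to 28.6 CPM and the downstream site from 44.2 to 85.6 CPM, so the 2 sites moved in opposite directions.

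Alas1 encodes the rate-limiting enzyme of heme synthesis. At its pair (chr9:106241270-106241338 upstream and chr9:106240372-106240399 downstream, minus strand, 918.5 bp apart) the share was 0% to 48.8% (median 24.8%) in total RNA and 22.5% to 92.3% (median 73.8%) in the nucleus, with 32 of 36 nuclear libraries above all total RNA libraries (log2 odds change 3.15, SE 0.26, adjusted p 1.79e-18). Kng1, the gene of the bradykinin precursor kininogen, had a pair (chr16:23077489-23077520 upstream and chr16:23079342-23079463 downstream, plus strand, 1898 bp apart) at 19.6% to 72.4% (median 39.8%) and 68.6% to 100% (median 89.9%) (log2 odds change 3.69, SE 0.26, adjusted p 8.85e-22). The predicted gene Gm6563 (chr19:23676350-23676487 upstream and chr19:23676626-23676736 downstream, plus strand, 262.5 bp apart) went from a median of 42.3% to 85.9% (adjusted p 4.44e-26). In each of these 3 genes some nuclear libraries fell within the range of total RNA.

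The widest fall among the named pairs in the nucleus was at Decr2, the gene of a peroxisomal dienoyl-CoA reductase that works in the breakdown of unsaturated fatty acids (chr17:26081783-26081879 upstream and chr17:26081312-26081418 downstream, minus strand, 466 bp apart). Its downstream share was 43.3% to 88.4% (median 74.5%) in total RNA and 4.10% to 29.9% (median 9.92%) in the nucleus (log2 odds change -4.75, SE 0.14, adjusted p 2.83e-43). The upstream site went from 24.6 to 94.2 CPM as the downstream site went from 69.3 to 9.97 CPM, with no overlap of the shares. Ugt2b1, a glucuronosyltransferase gene of drug and steroid clearance (chr5:86917596-86917742 upstream and chr5:86916623-86916906 downstream, minus strand, 904.5 bp apart), had 76.9% to 95.5% (median 82.9%) against 13.9% to 50.3% (median 34.01%) (log2 odds change -3.35, SE 0.13, adjusted p 2.67e-36). This gene belongs to a family of similar copies, among which the authors' counting could split reads.

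Malat1, a long noncoding RNA kept in the nucleus, had a pair (chr19:5800531-5800583 upstream and chr19:5799086-5799289 downstream, minus strand, 1369.5 bp apart) at 86.7% to 94.5% (median 91.1%) in total RNA and 11.5% to 63.3% (median 35.1%) in nuclear RNA (log2 odds change -4.38, SE 0.15, adjusted p 4.89e-39). Its upstream site held 14.2 CPM in total RNA and 320.5 CPM in the nucleus, while the downstream site held 144.3 and 133 CPM. Id2, an inhibitor of basic helix-loop-helix transcription factors (chr12:25095167-25095281 upstream and chr12:25094284-25094461 downstream, minus strand, 851.5 bp apart), had 67.3% to 97.7% (median 81.1%) and 16.1% to 63.7% (median 30.2%) (log2 odds change -3.26, SE 0.18, adjusted p 2.08e-27). For Lpgat1, an acyltransferase gene of phospholipid synthesis (chr1:191778460-191778639 upstream and chr1:191779819-191779982 downstream, plus strand, 1351 bp apart), the values were 46.7% to 68.2% (median 60.2%) and 2.50% to 27.97% (median 12.9%) (log2 odds change -3.39, SE 0.14, adjusted p 1.13e-34). These 3 pairs separated all nuclear from all total RNA libraries. Rps27l, a ribosomal protein gene with a close paralog (chr9:66946833-66946877 upstream and chr9:66947600-66947702 downstream, plus strand, 796 bp apart), fell from a median of 77.4% to 27.6% with 16 of 36 nuclear libraries below all total RNA libraries (adjusted p 3.27e-21).

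Polysomal RNA, the mRNA loaded with several ribosomes, differed from total RNA at 2194 of 3324 tandem pairs tested by the same edgeR test. That is 66.0%, against 68.6% of all 15502 neighbouring pairs tested. The share of the downstream site rose at 1027 and fell at 1167 of them, so 46.8% of the called tandem pairs rose, against 53.4% of all called neighbouring pairs. Of all neighbouring pairs tested, 36.6% were called with a rise and 32.0% with a fall. The median change was -0.70 points and the median size 7.32 points. Polysomal libraries varied more, with a median SD of 11.3 points over the pairs tested against 7.05 in total RNA. Called changes of at least 10 points numbered 1262, with 574 rises and 688 falls, a size called at 44.0% of all neighbouring pairs tested (23.1% with a rise, 20.9% with a fall). The series did not overlap at 23 pairs (0.692%), against 1.05% of all neighbouring pairs tested. The most used site went from upstream to downstream at 146 called pairs and from downstream to upstream at 215, again counted at tandem pairs alone.

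Apob was named for polysomal RNA in both directions, at adjoining pairs that share a site. At the more 5′ pair (chr12:8005741-8005941 upstream and chr12:8006682-8006852 downstream, plus strand, 926 bp apart) the downstream share was 7.68% to 15.6% (median 10.2%) in total RNA and 28.7% to 72.1% (median 50.4%) in polysomes (log2 odds change 3.13, SE 0.12, adjusted p 3.74e-36). At the next pair (chr12:8006682-8006852 upstream and chr12:8007807-8007959 downstream, plus strand, 1116 bp apart) it was 45.99% to 68.9% (median 61.5%) and 3.43% to 22.7% (median 14.5%) (log2 odds change -3.25, SE 0.13, adjusted p 2.58e-34). All 36 polysomal libraries lay outside the range of total RNA at either pair. The shared site went from 41.8 to 153 CPM, whereas the site before it went from 365 to 170.1 CPM and the site after it from 67.4 to 29.99 CPM. The 12 Apob pairs are therefore not independent of each other.

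Among the other Apob pairs, the pair from chr12:8015018-8015086 to chr12:8015936-8016067 had a mean share of 71.8% ± 7.07 (SD, n = 36) in total RNA, 83.4% ± 4.91 in the nucleus and 93.8% ± 3.89 in polysomes. The pair that follows it, which ends at chr12:8016702-8016854, had 49.3% ± 9.43, 19.9% ± 8.75 and 19.2% ± 9.94 in the same order. Thus the site at chr12:8015936-8016067 held a larger part of the counts of both its pairs in either fraction than in total RNA.

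Faah, the hydrolase gene of endocannabinoid breakdown (chr4:115997784-115997981 upstream and chr4:115996711-115996842 downstream, minus strand, 1106 bp apart), had 34.7% to 70.8% (median 45.6%) against 1% to 16.2% (median 9.98%) (log2 odds change -3.04, SE 0.15, adjusted p 6.62e-30). At Pxmp4, a peroxisomal membrane protein gene (chr2:154587129-154587361 upstream and chr2:154586665-154586895 downstream, minus strand, 465 bp apart), the values were 69.9% to 98.97% (median 79.5%) and 11.7% to 64.8% (median 44.6%) (log2 odds change -2.59, SE 0.20, adjusted p 5.59e-19). No polysomal library reached the range of total RNA at Faah or Pxmp4.

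Onecut2, a transcription factor gene of hepatocytes and bile duct cells, held a pair that rose and a pair that fell. The first (chr18:64386590-64386742 upstream and chr18:64387185-64387251 downstream, plus strand, 552 bp apart) had 14.8% to 54.2% (median 34.6%) in total RNA and 28.4% to 98.4% (median 83.01%) in polysomes (adjusted p 3.16e-16). Farther along the gene, the other (chr18:64395505-64395581 upstream and chr18:64396349-64396503 downstream, plus strand, 883 bp apart) had 38.2% to 76.5% (median 62.3%) and 6.37% to 54.8% (median 24.3%) (adjusted p 1.71e-21). The groups overlapped at both pairs.

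Rpl22, a large-subunit ribosomal protein gene (chr4:152332388-152332488 upstream and chr4:152333877-152334086 downstream, plus strand, 1543.5 bp apart), had 9.26% to 25.03% (median 16.1%) against 17.7% to 87.3% (median 53.8%), with 35 of 36 polysomal libraries above all total RNA libraries (log2 odds change 2.67, SE 0.17, adjusted p 3.59e-23). Cdc34, a ubiquitin-conjugating enzyme gene (chr10:79687914-79688102 upstream and chr10:79688172-79688420 downstream, plus strand, 288 bp apart), rose from a median of 34.2% to 69.5% (adjusted p 4.45e-22). Ppp4r2, which encodes a regulatory subunit of protein phosphatase 4 (chr6:100866258-100866294 upstream and chr6:100867935-100867993 downstream, plus strand, 1688 bp apart), rose from 54.9% to 91.5% (adjusted p 3.30e-17). Prxl2c (chr13:64290288-64290326 upstream and chr13:64289794-64289851 downstream, minus strand, 484.5 bp apart) rose from 44.4% to 88.5% (adjusted p 1.44e-19), although only 6 polysomal libraries were above the highest total RNA library at 94.3%.

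Mup14, of the major urinary proteins that carry pheromones, was named with a fall (chr4:61303799-61303863 upstream and chr4:61303447-61303458 downstream, minus strand, 378.5 bp apart), with 20% to 55.7% (median 47.8%) in total RNA and 0% to 100% (median 0%) in polysomes (log2 odds change -7.43, SE 0.61, adjusted p 6.86e-17). Its value is uncertain. The Mup genes are near-identical copies between which reads can be split, and the library with the fewest counts held 1 at this pair in polysomal RNA.

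**Figure D3:**
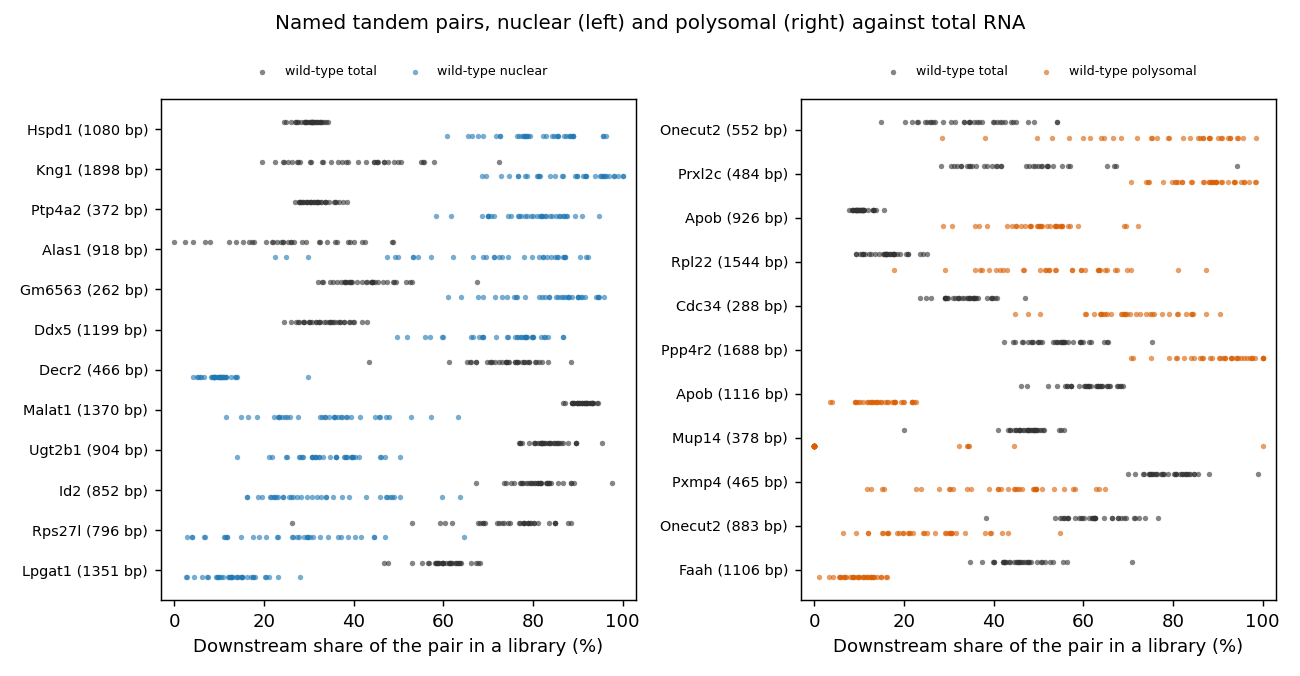
Downstream share (%) of the 12 named pairs in nuclear RNA (left) and of the 11 in polysomal RNA (right), each beside wild-type total RNA, 1 point per library (36 per series), with the distance between the sites in bp. Decr2 lies at 4.10% to 29.9% in the nucleus and at 43.3% to 88.4% in total RNA, and the 2 Apob pairs move in opposite directions in polysomes.

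Total RNA from mice labelled Bmal1-/- differed from wild type at fewer tandem pairs. Of 3957 tested, 460 passed the edgeR threshold (11.6%), against 14.9% of all 18888 neighbouring pairs tested. Of the 2822 neighbouring pairs called, 2126 lay over 2000 bp apart, a class in which 29.5% of listed pairs had both sites in the same gene. The downstream share rose at 157 and fell at 303, so 34.1% of the called tandem pairs rose, against 51.1% of all called neighbouring pairs. Of all neighbouring pairs tested, 7.63% were called with a rise and 7.31% with a fall. The median change over the pairs tested was -0.54 points, and its median size was 2.06 points. Changes of at least 10 points numbered 123, with 53 rises and 70 falls, a size called at 5.61% of all neighbouring pairs tested (2.94% with a rise, 2.67% with a fall). The most used site changed to the downstream one at 21 called pairs and to the upstream one at 29, counted at tandem pairs alone. No pair separated all 36 Bmal1-/- libraries from all 36 wild-type libraries, against 0.0212% of all neighbouring pairs tested.

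The largest Bmal1-/- differences came with a wide spread among the Bmal1-/- libraries. At the 123 pairs called with at least 10 points, the median SD was 14.5 points in Bmal1-/- and 11.3 in wild type, and the Bmal1-/- SD was more than 2 times the wild-type SD at 27 of them (21.95%), against 89 of the 3957 pairs tested (2.25%). A median of 29 of the 36 Bmal1-/- libraries lay within the wild-type range at these 123 pairs. The labels give the same strain for both genotypes, and differences between single animals were not tested. Transcripts of 4 bile duct markers summed to 33.3 to 117 CPM in Bmal1-/- (median 58.2) and 9.90 to 52.98 CPM in wild-type total RNA (median 19.03), nearly all of it Sox9, while Krt19, Krt7 and Epcam stayed at or below 4.46 CPM in either series. Their part in these results was not tested.

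Rps13, a small-subunit ribosomal protein gene, was the clearest case (chr7:116332417-116332482 upstream and chr7:116331504-116331615 downstream, minus strand, 890 bp apart). Wild-type libraries had a downstream share of 51.9% to 88.6% (median 74.9%). In Bmal1-/- the values fell into 2 separate ranges, with 31 libraries between 0.280% and 4.27% and 5 between 55.7% and 67.6% (log2 odds change -6.25, SE 0.41, adjusted p 9.68e-20). The mean difference over all libraries was -61.5 points.

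Ctsc, the gene of the lysosomal protease cathepsin C (chr7:88310188-88310316 upstream and chr7:88310709-88310880 downstream, plus strand, 542.5 bp apart), had 0.538% to 85.02% (median 58.1%) in wild type, where all libraries but the lowest were at 32.4% or more. In Bmal1-/-, 24 libraries lay at or below 4.91% and 12 between 31.1% and 68.9% (log2 odds change -4.20, SE 0.52, adjusted p 2.89e-09). The Prxl2c pair (chr13:64290601-64290680 upstream and chr13:64290288-64290326 downstream, minus strand, 333.5 bp apart) had 94.3% to 100% (median 98.5%) in wild type. Its Bmal1-/- values split into 20 libraries between 20.5% and 64.5% and 16 at 97.1% or more. The upstream site of Prxl2c was under 5% in wild type, so this pair met the site minimum only through the Bmal1-/- libraries. At a site minimum of 1%, which wild type meets alone, its edgeR adjusted p was 6.22e-06.

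Cox5b encodes a subunit of cytochrome c oxidase, and its pair (chr1:36693357-36693411 upstream and chr1:36693604-36693644 downstream, plus strand, 240 bp apart) had a downstream share of 0.332% to 4.09% (median 1.12%) in wild type. In Bmal1-/- 22 libraries were at or below 11.01% and 14 between 46.2% and 79.7%. This pair too met the minimum of 5% only through the Bmal1-/- libraries, and at a minimum of 1%, which wild type meets alone, its edgeR adjusted p was 6.40e-09. The upstream site went from 104 to 38.8 CPM and the downstream site from 1.32 to 3.93 CPM. Gas5, a noncoding host gene of small nucleolar RNAs (chr1:161037510-161037551 upstream and chr1:161037993-161038038 downstream, plus strand, 485 bp apart), had 12.7% to 36.96% (median 23.7%) in wild type and 18.4% to 100% (median 31.98%) in Bmal1-/-, with 5 libraries at 95.3% or more (adjusted p 0.0122).

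Me1, the cytosolic malic enzyme gene that makes NADPH for fat synthesis, had adjoining pairs that share a site. At the more 5′ pair (chr9:86582504-86582545 upstream and chr9:86581766-86581834 downstream, minus strand, 724.5 bp apart) the share was 5.41% to 58.1% (median 18.03%) in wild type and 0% to 97.7% (median 83.1%) in Bmal1-/-, with 28 of 36 libraries above all wild-type ones (log2 odds change 3.74, SE 0.37, adjusted p 9.05e-13). At the pair after it (chr9:86581766-86581834 upstream and chr9:86581368-86581596 downstream, minus strand, 318 bp apart) it was 90.3% to 99.4% (median 97.4%) and 38.4% to 100% (median 64.5%). That pair met the minimum of 5% per site only through the Bmal1-/- libraries, and its edgeR adjusted p at a minimum of 1% was 1.03e-16. The shared middle site held 3.46 CPM in wild type and 15.1 CPM in Bmal1-/-, while the last site went from 106 to 28.4 CPM. The middle site was thus higher in Bmal1-/- and the sites on either side of it lower.

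Arg1, the arginase gene of the urea cycle and an abundant liver mRNA, had a pair with a mean of 5353 counts per Bmal1-/- library (chr10:24915511-24915781 upstream and chr10:24915195-24915424 downstream, minus strand, 336.5 bp apart). Its share was 33.6% to 79.3% (median 41.04%) in wild type and 30.97% to 83.9% (median 60.8%) in Bmal1-/- (log2 odds change 1.16, SE 0.20, adjusted p 6.15e-06). Here the Bmal1-/- libraries spread without a wide break, and 1 wild-type library, at 79.3%, lay far above the other 35. The uncharacterised transcript 0610005C13Rik (chr7:45569082-45569241 upstream and chr7:45568060-45568136 downstream, minus strand, 1063.5 bp apart) rose from a median of 16.7% to 31.7% (adjusted p 2.25e-05). Cyp2d40, a cytochrome P450 gene (chr15:82760185-82760203 upstream and chr15:82759824-82760037 downstream, minus strand, 263.5 bp apart), fell from 82.4% to 50.03% (adjusted p 1.00e-09). Mup18 (chr4:61671119-61671185 upstream and chr4:61670275-61670294 downstream, minus strand, 867.5 bp apart) and Mup12 (chr4:60741127-60741231 upstream and chr4:60740771-60740784 downstream, minus strand, 401.5 bp apart) were called in opposite directions (adjusted p 0.0381, and 1.81e-07 for Mup12 at a minimum of 1% per site, since wild type did not meet that of 5%), with medians of 12.9% and 96.4% in wild type and 28.5% and 78.6% in Bmal1-/-. Cyp2d and Mup genes have close copies, so these 3 values are uncertain.

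**Figure D4:**
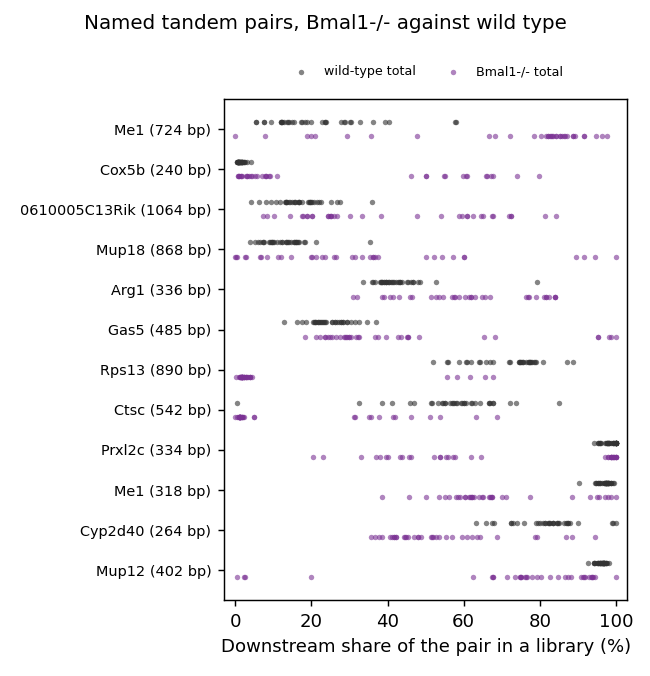
Downstream share (%) of the 12 named pairs in total RNA of wild-type and Bmal1-/- livers, 1 point per library (36 per series), with the distance between the sites in bp. Bmal1-/- libraries fall into separate ranges at Rps13, Ctsc, Prxl2c and Cox5b, with a gap of 51.4 percentage points at Rps13.

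Few tandem pairs were called for a change of the downstream share with time of day. In wild-type total RNA, 13 of 4045 pairs (0.321%) were called for a 24 h rhythm of the downstream share (edgeR quasi-likelihood F test on a cosine and a sine), against 1.84% of all 19299 neighbouring pairs tested. Of the 356 neighbouring pairs called, 338 lay over 2000 bp apart (3.51% of those tested), while 0.0887% were called under 200 bp. Of all listed pairs over 2000 bp apart, 29.5% had both sites in the same gene. This background is thus not one of site choice within genes alone. That class also held 71 of 73 rhythm calls in nuclear RNA, 46 of 47 in polysomal RNA and 56 of 59 differences in rhythm in Bmal1-/-. An unadjusted p under 0.05 was found at 249 tandem pairs. With simulated counts of this design the test found 8% of rhythms of 1 log2 odds unit and 1% of those of 0.5. The simulated spread was taken from observed values that already held counting error, and counting error was then drawn again. These percentages therefore do not measure which rhythms were detectable in the data. Pairs without a call are not shown to lack a rhythm. Of the 13 pairs, 8 averaged 50 or more counts a library and had both sites in the same gene, and they are described here.

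Slc38a4, a liver transporter gene of amino acids, gave the smallest adjusted p (chr15:96996747-96997035 upstream and chr15:96994809-96995010 downstream, minus strand, 1981.5 bp apart). Over ZT2, 6, 10, 14, 18 and 22 its mean share in wild-type total RNA was 27.8, 34.1, 37.6, 24.5, 23.2 and 23.6% (6 libraries each). At ZT10 the libraries ran from 29.9% to 46.9% (median 37.7%) and at ZT18 from 19.8% to 25.1% (median 24.3%), so these groups did not overlap. The fitted peak was at ZT7.61 and the rise from trough to peak 1.01 log2 odds units (edgeR adjusted p 4.32e-04). With replicates 1 to 3 alone the adjusted p was 0.0172, and with replicates 4 to 6 alone 0.0750.

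In polysomal RNA the Slc38a4 share was also highest at ZT10. Its means were 37.4, 44.1, 52.5, 45.3, 32.7 and 33.1% in the same order of times, and this was the 1 pair of 3308 called rhythmic in polysomal RNA (edgeR adjusted p 0.00590, background 0.31% of 15176 neighbouring pairs; 90 tandem pairs at an unadjusted p under 0.05). The call was lost with limma (adjusted p 0.105), with replicates 1 to 3 alone (0.691) and with replicates 4 to 6 alone (0.115). In nuclear RNA the means were 17.6, 27.3, 24.4, 18.3, 15.99 and 14.6%, with an adjusted p of 0.0619 that missed the threshold. In Bmal1-/- total RNA they stayed between 20.3 and 23.7% (20.3, 22.005, 22.2, 23.7, 22.99 and 23.4%), near the night values of wild type. The difference in rhythm between Bmal1-/- and wild-type total RNA passed the test at Slc38a4 (edgeR interaction, adjusted p 0.00500).

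Errfi1 encodes a feedback inhibitor of the EGF receptor. Its pair (chr4:150868297-150868426 upstream and chr4:150868630-150868894 downstream, plus strand, 400.5 bp apart) had wild-type means of 63.4, 64.4, 59.9, 52.3, 52.8 and 49.6% from ZT2 to ZT22, and libraries of 57.7% to 68.95% (median 64.1%) at ZT6 against 41.4% to 54.3% (median 50.3%) at ZT22, without overlap. The adjusted p was 0.0148, the fitted peak ZT5.82. Bmal1-/- means were 57.1, 52.8, 58.5, 59.6, 63.8 and 60.1%, lowest at ZT6 where wild type was highest, although the range of the 6 Bmal1-/- libraries at ZT6 was 26.1% to 61.7% (median 57.9%). Its rhythm differed from wild type by the interaction test (adjusted p 0.00642). Nuclear means of 53.2, 54.2, 50.6, 45.1, 43.9 and 41.9% and polysomal means of 70.995, 74.96, 72.6, 66.3, 65.6 and 60.3% were also higher in the light phase than late at night, without passing the test (adjusted p 0.662 and 0.392).

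Errfi1 and Slc38a4 were the 2 of 3957 tandem pairs called for a different rhythm in Bmal1-/- (109 at an unadjusted p under 0.05), against 0.312% of 18888 neighbouring pairs tested. For the nuclear and polysomal series the same edgeR test called 0 of 2687 and 0 of 3324 pairs, with 57 and 71 at an unadjusted p under 0.05, and limma also called 0 in each. All neighbouring pairs gave 0.0% and 0.0129% for these. In Bmal1-/- total RNA itself 0 of 4120 pairs were called rhythmic, with 83 at an unadjusted p under 0.05, and limma and the fit with the pair total as offset called 0 as well. The background was 0.0% of 19776 neighbouring pairs. A call in wild type and none in Bmal1-/- does not by itself show a difference, which the interaction gives for these pairs alone.

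Elovl3, an elongase gene of very long chain fatty acids, had its lowest share at ZT10 (chr19:46134964-46135122 upstream and chr19:46135192-46135321 downstream, plus strand, 213.5 bp apart). The wild-type means were 85.5, 82.9, 78.9, 81.9, 86.1 and 89.8%, with libraries at 72.1% to 87.04% (median 78.3%) at ZT10 and 81.2% to 96.3% (median 90.5%) at ZT22 (adjusted p 0.0139). Rpl22, also named for its polysomal rise, had means of 16.1, 17.7, 21.1, 16.3, 12.2 and 13.2% (adjusted p 0.0116). Pla2g12a, a secreted phospholipase A2 gene with 89.5 counts per library (chr3:129895163-129895309 upstream and chr3:129895729-129895771 downstream, plus strand, 514 bp apart), had 10.6, 18.03, 20.1, 10.99, 9.14 and 11.1% (adjusted p 0.0326), and without the libraries with Xist above 100 CPM its adjusted p was 0.0578. Peaks of Rpl22 and Pla2g12a fell at ZT8.33 and ZT8.01, close to that of Slc38a4.

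Nit2, an omega-amidase gene of glutamine metabolism (chr16:57156872-57157095 upstream and chr16:57156663-57156836 downstream, minus strand, 234 bp apart), had the widest range with all libraries, with means of 54.2, 48.2, 42.8, 33.9, 42.2 and 48.02% (adjusted p 0.0326). Its ZT2 mean rested in part on replicate 4, which was at 84.8%. Without that library the ZT2 mean was 48.1%, the range 14.3 points and the adjusted p 0.0132, and the ranges of Errfi1 (14.8 points), Snhg1 (14.5) and Slc38a4 (14.4) were then wider. Col18a1, the gene of the endostatin precursor collagen XVIII (chr10:77053018-77053346 upstream and chr10:77052173-77052501 downstream, minus strand, 845 bp apart), had 66.7, 61.2, 58.8, 53.5, 54.6 and 61.2% (adjusted p 0.0404), and without the same library its range was 9.61 points (adjusted p 0.0144). Its call was lost with limma (adjusted p 0.0685) and at a site minimum of 1% (0.0582). Snhg1, a host gene of small nucleolar RNAs (chr19:8724592-8724607 upstream and chr19:8726248-8726348 downstream, plus strand, 1698.5 bp apart), had 89.8, 96.8, 97.1, 94.8, 82.6 and 85.2% (adjusted p 0.0153, and 0.146 with the pair total as offset), and limma gave 0.0507 for it and 0.0511 for Pla2g12a. Without replicate 4 at ZT2, 21 tandem pairs were called in all. The other 5 called pairs, in Cdc37l1, Serf2, Sel1l3, Pdgfa and Rab20, had means of 24.1 to 45.1 counts per library and were below the count minimum for description. Apart from Slc38a4, each of the 8 described pairs missed the threshold with replicates 1 to 3 alone and with replicates 4 to 6 alone.

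In nuclear RNA 1 of 2530 pairs was called rhythmic, against 0.607% of 12023 neighbouring pairs, and 70 had an unadjusted p under 0.05. Its sites were not both assigned to the same single gene (chr15:89377445-89377578 upstream and chr15:89375851-89375872 downstream, minus strand, 1650 bp apart). Genes without a known strand were left out of that assignment. Its mean nuclear share was 70.1, 54.6, 38.4, 59.7, 71.5 and 77.01% from ZT2 to ZT22 (edgeR adjusted p 0.0284). The call was lost with the pair total as offset (adjusted p 0.0523), with replicates 1 to 3 alone (0.915), with replicates 4 to 6 alone (0.407) and without the library with Xist above 100 CPM (0.0637). Total RNA of wild type had means of 28.4, 19.3, 7.97, 15.5, 29.1 and 36.4%, also lowest at ZT10.

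**Figure D5:**
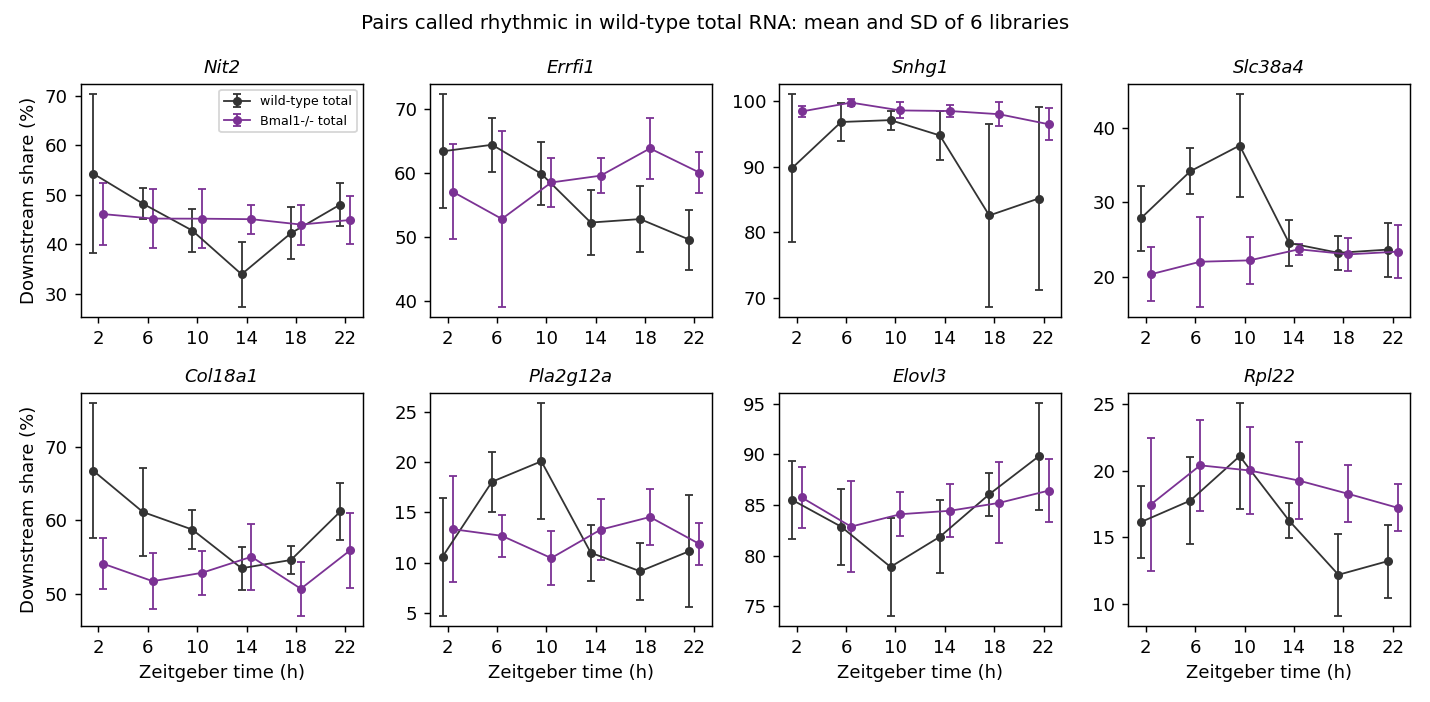
Downstream share (%) against zeitgeber time (h) of the 8 pairs called rhythmic in wild-type total RNA, as mean and SD of 6 libraries, with total RNA of Bmal1-/- livers beside it. Slc38a4 peaks at 37.6% at ZT10 in wild type and stays at 20.3 to 23.7% in Bmal1-/-.

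Genes of 3′ end processing and poly(A) binding, which carry out or read cleavage, held 19 tandem pairs in 10 genes. In the nucleus 6 pairs were tested, and all 6 were called, with 5 rises and 1 fall, against the 77.2% of all neighbouring pairs. The median change was 22.1 points, against -1.76 over all tandem pairs tested. Pabpn1, the nuclear poly(A)-binding protein gene, had 0% to 14.5% (median 6.36%) in total RNA and 23.3% to 73.6% (median 43.9%) in the nucleus, without overlap (adjusted p 3.15e-31). Rbbp6, a cleavage factor gene, had 4.65% to 60% (median 42.8%) and 51.8% to 93.3% (median 75.8%) (adjusted p 5.00e-16), and in polysomes 0% to 27.5% (median 7.52%) (adjusted p 1.55e-16), so its share rose in the nucleus and fell in polysomes. Fip1l1 and Cstf1, genes of the cleavage machinery, rose in the nucleus from medians of 43.9% and 71.1% to 73.9% and 89.6%. Pabpc1, the cytoplasmic poly(A)-binding protein gene, rose in either fraction, from 10.97% to 29.1% in the nucleus and 28.1% in polysomes. All 4 pairs tested in polysomes were called, 3 with a rise and 1 with a fall, against 68.6% of all neighbouring pairs. In Bmal1-/- 0 of 11 pairs were called, against 14.9%.

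RNA-binding protein genes of splicing and mRNA decay held 30 pairs in 17 genes. Of those tested, 15 of 19 were called in the nucleus (8 rises, 7 falls), 13 of 22 in polysomes (6 rises, 7 falls) and 6 of 24 in Bmal1-/- (2 rises, 4 falls), against 77.2, 68.6 and 14.9% of all neighbouring pairs. Hnrnpa1, a splicing regulator, had the largest nuclear change of this list, with 2.15% to 31.2% (median 14.7%) in total RNA and 40% to 100% (median 89.2%) in the nucleus (chr15:103244868-103244939 upstream and chr15:103246636-103246678 downstream, plus strand, adjusted p 6.96e-34). Polysomal RNA had 0% to 46% (median 14.8%) there, and the test against total RNA was not passed (adjusted p 0.558). Its nuclear libraries held a mean of 45.5 counts, under the 100 required for a pair to be named above. Srsf5, a serine and arginine rich splicing factor gene, had adjoining pairs with falls in the nucleus, from medians of 84.6% and 72.7% to 63.5% and 40.1%. Hnrnpu, a scaffold protein gene of nuclear RNA, had 3 pairs that rose there.

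Plasma protein genes, the main secretory products of hepatocytes, held 65 pairs in 28 genes. In the nucleus 33 of 40 were called (15 rises, 18 falls), in polysomes 31 of 41 (12 rises, 19 falls) and in Bmal1-/- 8 of 40 (4 rises, 4 falls), against the same 77.2, 68.6 and 14.9%. The median changes were -1.04, -3.97 and 0.288 points, against -1.76, -0.70 and -0.54 over all tandem pairs tested. Serpinc1, the antithrombin gene, rose in the nucleus, with 30.4% to 45.98% (median 39.5%) in total RNA and 43.8% to 80.5% (median 67.9%) in nuclear RNA (adjusted p 3.57e-21). Igf1, the hepatic growth factor gene, fell there at 1 pair, with 49.8% to 71.3% (median 64.6%) in total RNA and 0% to 82.4% (median 45.9%) in the nucleus (adjusted p 2.06e-08). Apob accounted for several of the calls of this list, at pairs that share sites.

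Clock genes held 18 pairs in 8 genes. For rhythm, 12 of these were tested in wild-type total, 9 in nuclear, 10 in polysomal and 15 in Bmal1-/- RNA. None was called, against 1.84, 0.607, 0.31 and 0.0% of all neighbouring pairs tested. None of the 9 nuclear, 12 polysomal and 12 Bmal1-/- pairs tested was called for a difference in rhythm, against 0.0, 0.0129 and 0.312%. With so few pairs at such shares, the lack of calls is no result about clock genes. Of those tested, 6 of 9 were called in the nucleus (3 rises, 3 falls), 4 of 12 in polysomes (2 rises, 2 falls) and 0 of 12 in Bmal1-/-, where the background is again 77.2, 68.6 and 14.9%. All 3 nuclear rises were in Hlf, a clock output transcription factor gene. Bhlhe40, a clock repressor gene, fell in the nucleus at adjoining pairs, from medians of 19.2% and 95.7% to 13.96% and 83.3%. Csnk1d, the casein kinase gene that phosphorylates PER proteins, went from 96.3% to 91.9% in the nucleus and 89.7% in polysomes. Total RNA had under 5% at the upstream site of the Csnk1d pair and of the second Bhlhe40 pair, so these met the site minimum only through the fractions. Their calls are part of the counts above and are no support for a change at clock genes. Of all tandem pairs that passed in this way, 105 of 110 (95.5%) were called in the nucleus, against 95.7% of all such neighbouring pairs. In polysomes 89 of 115 (77.4%) were, against 82.2%. Other tandem pairs met the site minimum only through wild-type total RNA. Of those, 243 of 249 (97.6%) were called in the nucleus and 191 of 205 (93.2%) in polysomes. The matching shares of all neighbouring pairs were 95.5 and 96.0%. Pairs of 1 gene share sites and reads of that gene and are not independent.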

How the data were processed

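Livers of male mice gave 144 3′ mRNA libraries in 4 series of 36. The authors deposited raw counts per gene and per polyadenylation site and a filtered site list. STAR 2.4.2a, edgeR and HOMER, and the builds mm10 and GRCm38.p5, are named in the submitters' processing notes, with no role stated, and the counting rules are not given in the sources used here. Genes were assigned by position and strand from RefSeq spans, and for 2082 genes the strand was inferred from their site counts. No sample column was left without a sample (0).

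For each pair of neighbouring sites, edgeR 4.0.16 (R 4.3.3, quasi-likelihood F test, robust) was fitted to the upstream and downstream counts, with 1 coefficient per library, so the reported value is the change of the log2 odds of the downstream site. Time point was a term when series were compared, and a 24 h cosine and sine (2 degrees of freedom) described rhythm. Pairs needed a mean of 20 counts per library in each series and at least 5% at each site. Benjamini-Hochberg adjustment ran over all neighbouring pairs, with a threshold of 0.05. The tests were checked on simulated data of 3000 pairs, of which 200 were changed. For Bmal1-/- against wild type the test recovered 35% of changes of 0.5 log2 odds units and 81% of changes of 1, with 3 false calls. The simulated spread already held counting error before counts were drawn, so recovery in the real data may differ. That spread was drawn from a normal distribution with an SD of at most 1 log2 odds unit. The false calls therefore do not cover pairs whose Bmal1-/- libraries fell into separate ranges, such as Rps13. Alternatives used an offset model, limma 3.58.1, DESeq2 1.42.0, other filters, fewer replicates and a replicate block. Where series were compared, the pairs named were the 6 widest rises and 6 widest falls that averaged 100 or more counts a library in each series and moved in the same direction at all 6 times, at most 1 per gene and direction. For polysomes, 1 of these is not reported here. For rhythm they were the 8 with the widest range at a mean of 50 counts or more. The members, lists and rules were chosen with earlier results of these data known. Replicate numbers were not shown to pair libraries by animal, and the main fits held no term for them. No 2 libraries of a group were alike within counting noise. Counts set the precision, and shares of low-count pairs carry wide counting error. Site sequences and exon positions were not used here, since no genome of the files' build was used.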

Additional observations from a re-analysis of the deposited data

Results flagged for a closer look

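In groups of 6 libraries, 78 groups were searched for a library far from the others, and chance marks about 1 in 20 groups. Wild-type total RNA replicate 4 at ZT2 stood apart in the mean downstream share (60.9%), at Nit2 (84.8%), at Snhg1 (68.0%), at Col18a1 (84.7%) and at Rpl22 (10.8%). Nuclear replicate 5 at ZT10 stood apart in the mean share (57.4%), and wild-type total RNA replicate 5 at ZT6 at Nit2 (42.5%). The rhythm in Bmal1-/- differed from that in wild type by the edgeR interaction test at Errfi1 (adjusted p 0.00642) and Slc38a4 (adjusted p 0.00500).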

How the results depend on the processing

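Called pairs in the nucleus numbered 744 at a minimum of 100 counts, with fewer pairs tested, and in polysomes 963. The number of pairs tested can differ between such settings, so the counts of calls here give no call rate. In Bmal1-/- 248 were called with replicates 1 to 3 alone. Rhythm calls in wild-type total RNA numbered 5 with replicates 1 to 3, 0 with replicates 4 to 6, and 21 without replicate 4 at ZT2. Nuclear rhythm calls numbered 0 with the offset model, 2 with limma, 3 at 100 counts and 0 with either set of 3 replicates. Polysomal rhythm calls numbered 3 with the offset model, 0 with limma, 2 at 100 counts, 6 at a site minimum of 1% and 0 with either set of 3 replicates. Differences in rhythm in Bmal1-/- numbered 1 with replicates 1 to 3 and 0 with replicates 4 to 6. The cause of these changes was not tested beyond the fewer libraries or pairs in such fits. Over 750 pairs with at least 50 counts in every library, the mean share was 61.0% in wild-type total, 60.02% in nuclear, 61.0% in polysomal and 60.4% in Bmal1-/- RNA. Over all alternatives, the pairs named in comparisons of series kept direction and call in 386 fits and lost the call in 9, and those named for rhythm kept it in 81 and lost it in 27. None reversed (0).

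Same-numbered libraries had mean correlations of 0.110 (nuclear), -0.0149 (polysomal) and 0.116 (Bmal1-/-) with wild-type total RNA over their deviations, against -0.0218, 0.00419 and -0.0224 for other numbers. Only 19, 9 and 21 of 36 were over 0.1, and 16, 3 and 11 of 36 correlated best with their own among 6 numbers. The nuclear and Bmal1-/- counts were above an equal part for each number, and the polysomal count was below it. Nuclear and Bmal1-/- libraries thus shared some deviation with wild-type total libraries of their number, which was not tested. Bmal1-/- and wild-type libraries cannot share an animal, so the numbers were not shown to pair libraries by animal. With a replicate block, 35 pairs were called rhythmic in wild-type total (13 without it), 6 in nuclear and 3 in polysomal RNA. Between series, the block gave 2147 calls in the nucleus (2102 without it), 2234 in polysomes (2194) and 640 in Bmal1-/- (460). The main fits held no replicate term.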

Other observations

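Arntl lies on chromosome 7, and the Rps13 pair is 3.09 Mb from it. The named Ctsc and 0610005C13Rik pairs lie on chromosome 7 as well. Of tandem pairs tested in Bmal1-/-, 5 of 45 (11.1%) within 10 Mb of Arntl were called by edgeR, 24 of 175 (13.7%) on the rest of chromosome 7 and 431 of 3737 (11.5%) on other chromosomes. Within 30 Mb it was 9 of 107 (8.41%), and 20 of 113 (17.7%) on the rest of chromosome 7. Calls of at least 10 points numbered 1 of 45 (2.22%, the Rps13 pair) within 10 Mb and 2 of 107 (1.87%) within 30 Mb. The rest of chromosome 7 had 6 of 175 (3.43%) and 5 of 113 (4.42%), and other chromosomes 116 of 3737 (3.1%). Both windows were chosen after the values were seen, and no test was made.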
